A study of Mus musculus with 35 samples.

Results

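Midkine (Mdk), its relative pleiotrophin (Ptn) and the 4 syndecans (Sdc1, Sdc2, Sdc3 and Sdc4) were followed in whole kidneys of diabetic and control mice at 3 ages. These are 6 genes of the 18193 that a probe set of the array names alone. They were chosen by name, from the probe sets annotated to them, because the Mdk signal was lower in diabetic kidneys at 2, 4 and 8 months. The diabetic-control values of Mdk are therefore the values that chose it and are given as a description without a test, whereas Ptn and the syndecans, chosen as relative and partners, were tested. The diabetic mice were OVE26 mice, which carry a transgene that drives calmodulin in the insulin-producing beta cells and become diabetic early in life. Controls are labelled only as control mice, with no genotype, and every sample is labelled as FVB/NJ whole kidney. Mice aged 2 months gave 6 diabetic and 6 control arrays, those aged 4 months gave 7 diabetic and 4 control arrays, and those aged 8 months gave 6 of each. Signals of Affymetrix probe sets are on a log2 scale, so a difference of 1 is a doubling of signal, and the signals of different genes are not compared because probe sets differ in how well they bind. The number of arrays in a group limits the precision. Counts of kidneys and each n below are counts of arrays, and nothing says that arrays come from separate animals.

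Midkine and pleiotrophin are small secreted growth factors that bind heparin and the sulphated sugar chains of cell-surface proteoglycans. Midkine was first found as a gene induced by retinoic acid in embryonal carcinoma cells, and in the adult mouse kidney it is known from the tubular epithelium. Syndecans are membrane proteins that carry heparan sulphate chains, hold growth factors at the cell surface, act as their co-receptors, link the matrix to the actin cytoskeleton and can be cut off the cell by metalloproteinases. Syndecan-1 is best known from epithelial cells and plasma cells, syndecan-2 from mesenchymal and endothelial cells, syndecan-3 from the nervous system, and syndecan-4 from focal adhesions of many cell types.

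Each of the 6 genes was bright enough to be among the 13004 tested. Kidney markers were bright on every array. Umod, the uromodulin of the thick ascending limb, lay between 13.704 and 13.820 in diabetic kidneys at 8 months and between 14.050 and 14.089 in controls of that age. Slc34a1, the phosphate transporter of the proximal tubule, lay between 12.837 and 13.484 in the diabetic kidneys and between 13.523 and 13.542 in the controls at 8 months. At 2 months arrays 5 and 6 of each group stood apart from arrays 1 to 4 on the leading principal component, which took 42.8% of the variance at that age. At 4 months control arrays 3 and 4 had Arntl, a core gene of the circadian clock, at 7.84 and 8.17, while it reached 6.21 at most on the other arrays of that age. At 8 months Arntl stood at 6.97, 6.73 and 7.81 on diabetic arrays 1, 2 and 5, against 5.31 to 6.77 on control arrays, and at 2 months it stood at 7.80, 7.88 and 8.28 on diabetic arrays 1, 5 and 6 and at 7.66 on control array 6, with at most 6.82 on the others. At 8 months diabetic array 3 had the highest of the 6 diabetic values for 26.7% of the genes tested. Calls lost without these arrays are named with their values.

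Mdk was lower in diabetic kidneys at every age, by a little over 1 log2 unit each time. At 2 months the lowest, median and highest Mdk signals were 8.301, 8.517 and 8.874 in diabetic kidneys, against 9.078, 9.664 and 9.745 in controls. At 4 months they were 7.828, 8.080 and 8.236 in diabetic kidneys, while the 4 control values were 8.737, 8.952, 9.377 and 9.252. At 8 months they were 7.589, 8.233 and 8.822 in diabetic kidneys and 9.068, 9.224 and 9.745 in controls. Every diabetic array thus lay below every control array of its age, and the highest diabetic array stood 0.204 below the lowest control array at 2 months, 0.502 below it at 4 months and 0.246 below it at 8 months. Of all genes tested, 0.961% at 2 months, 2.44% at 4 months and 4.28% at 8 months had all diabetic arrays below all controls, and 0.185% did so at all 3 ages. These shares are given as background only, since Mdk was chosen by this contrast.

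**Figure D1:**
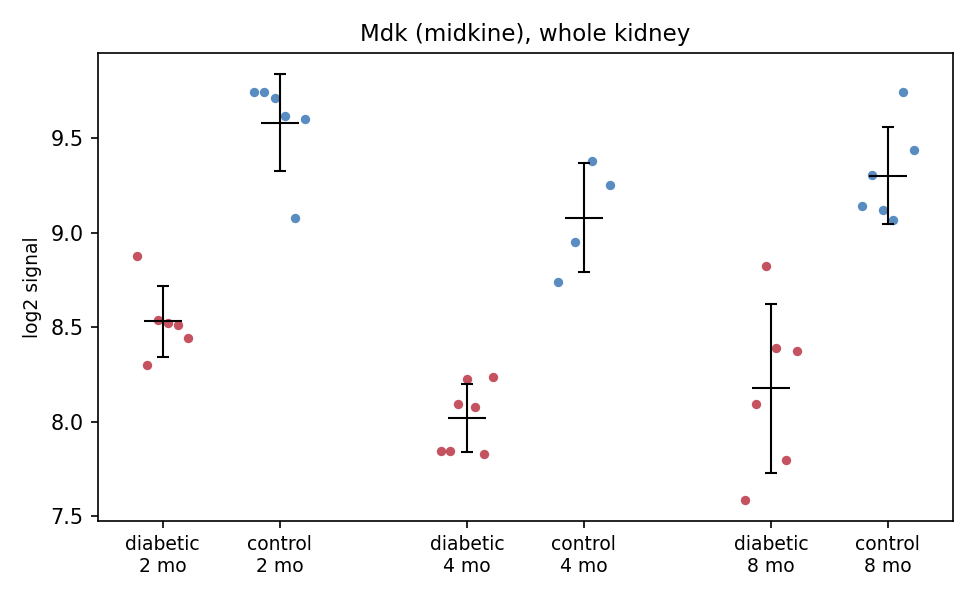
Mdk log2 signal on each of the 35 arrays (points), by group and age in months, with the group mean and SD (bars). All diabetic points lie below all control points of the same age, by the smallest margin at 2 months, where 1 control array stands at 9.078.

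The mean Mdk signal was 8.531 ± 0.189 in diabetic and 9.582 ± 0.255 in control kidneys at 2 months (SD, n = 6 each), a log2 difference of -1.05 ± 0.15 (SE of the fit), or 2.07-fold lower. At 4 months it was 8.021 ± 0.181 in 7 diabetic and 9.080 ± 0.290 in 4 control kidneys (SD), a difference of -1.06 ± 0.17, or 2.08-fold lower. At 8 months it was 8.177 ± 0.446 in diabetic and 9.302 ± 0.256 in control kidneys (SD, n = 6 each), a difference of -1.12 ± 0.15, or 2.18-fold lower. The differences at the 3 ages lay within their error of each other. The difference changed by -0.01 ± 0.23 from 2 to 4 months, by -0.07 ± 0.23 from 4 to 8 months and by -0.07 ± 0.22 from 2 to 8 months. Ordered by mean, the 6 groups ran from diabetic at 4 months, the lowest, through diabetic at 8 and at 2 months to control at 4, at 8 and at 2 months. Neighbours in that order had overlapping ranges, the pair of diabetic at 2 months and control at 4 months included. The mean over all probe sets was 6.537 on each 8-month array, 6.427 to 6.443 at 2 months and 6.018 to 6.036 at 4 months. The ages may thus have been scaled apart, so this order joins values whose common scale is not known.

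The arrays that stood apart left the Mdk difference in place. Control array 5 at 2 months, at 9.078, was 0.524 below the next control array, and without it the difference was -1.15. With arrays 5 and 6 of both groups left out it was also -1.15, and with these 4 arrays as the only ones of that age it was -0.86 ± 0.28. Without control arrays 3 and 4 the 4-month difference was -0.82 ± 0.21, and the remaining controls, at 8.737 and 8.952, still lay above every diabetic array. The highest diabetic value at 8 months was that of array 3, and without it the difference was -1.25. Mdk has only 1 probe set on this array, so no other probe set bears on it.

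Markers of the proximal tubule, thick ascending limb and distal convoluted tubule were also mostly lower in diabetic kidneys at 8 months. At 4 months the mean levels of these lists were apart without calls. Of all genes tested 1.78% fell at 2 months, 0.554% fell at 4 months, and 6.95% fell and 9.87% rose at 8 months. The mean log2 signal of 12 proximal tubule markers lay between 12.117 and 12.556 in diabetic kidneys at 8 months, against 12.607 to 12.672 in controls, and 8 of the 12 fell while 1 rose. At 2 months the same mean lay between 12.798 and 12.990 in diabetic kidneys and between 12.774 and 13.067 in controls, so the groups overlapped, and 0 of 12 were called. At 4 months it lay between 12.041 and 12.425 in diabetic kidneys and between 12.431 and 12.518 in controls, so the groups did not overlap, with 0 of 12 called. Of 7 thick ascending limb markers 2 fell at 2 months, 0 were called at 4 months and 6 fell at 8 months. Their mean lay between 11.426 and 11.922 in diabetic kidneys and between 11.842 and 11.973 in controls at 2 months, and it did not overlap at 4 months, with 11.539 to 11.625 in diabetic kidneys and 11.687 to 11.870 in controls. Of 5 distal convoluted tubule markers 0 were called at 2 and 4 months and 4 fell at 8 months, and their 4-month mean lay between 10.213 and 10.635 in diabetic kidneys and between 10.636 and 10.733 in controls. With the replicate block 1 of the 5, Trpm6, was called as lower at 2 months. Of 9 collecting duct markers 1 fell at 2 months and 2 fell at 4 months, or 1 with the replicate block. At 8 months 2 of the 9 rose and 3 fell. Their mean overlapped at each age, with 9.344 to 9.647 in diabetic kidneys and 9.510 to 9.690 in controls at 8 months. Array by array the lists did not all follow Mdk. Diabetic array 3 at 8 months, the highest of its group for Mdk at 8.822, had the lowest thick ascending limb and distal convoluted tubule means, 11.366 and 10.034. Its proximal tubule mean was 12.145, where the lowest of the group was 12.117. In whole-kidney RNA fewer cells of a type and less RNA per cell cannot be told apart, and the part of these markers in the Mdk difference was not tested.

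The genes whose signal most resembled that of Mdk over the 35 arrays were ranked by Pearson r after the mean of all arrays of an age was removed. This measure holds the diabetic-control difference itself and anything else the arrays share, so r is given as a description. The highest were Slc15a2, a peptide transporter of the late proximal tubule (r = 0.879), Spats2l (0.873), the carbonyl reductase Cbr2 (0.853), the sodium-proton exchanger Slc9a8 (0.853) and the kynurenine aminotransferase Kyat3 (0.851). All of them had lower means in diabetic kidneys at each age, and Slc9a8 differed by -1.10, -1.06 and -1.30 at 2, 4 and 8 months, sizes close to those of Mdk. With the mean of each group removed, r with Mdk was 0.266 for Slc15a2, 0.522 for Spats2l, 0.431 for Cbr2, 0.263 for Slc9a8 and 0.253 for Kyat3. The most opposite genes were Mtarc1, a mitochondrial reductase (r = -0.857), the transcription factor Arnt2 (-0.824) and the epoxide hydrolase Ephx1 (-0.822). Mtarc1 was higher in diabetic kidneys by 1.59, 1.96 and 1.78 at 2, 4 and 8 months, and with group means removed its r with Mdk was -0.579.

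Ptn, the other member of the midkine family, did not pass the test at any age. At 2 months its lowest, median and highest signals were 6.211, 6.309 and 6.602 in diabetic kidneys and 6.082, 6.269 and 6.384 in controls, a difference of 0.12 ± 0.09 (limma, adjusted p = 0.589). At 4 months they were 5.264, 5.468 and 5.632 in diabetic kidneys, while the controls had 5.455, 5.409, 5.463 and 5.421. At 8 months they were 4.903, 5.147 and 5.793 in diabetic kidneys and 5.096, 5.198 and 5.353 in controls. The groups overlapped at each age, and the differences at 4 and 8 months were 0.02 ± 0.10 and 0.01 ± 0.09 (limma, adjusted p = 0.984 and 0.960). The 95% confidence intervals of the difference ran from -0.07 to 0.31 at 2 months, from -0.19 to 0.22 at 4 months and from -0.18 to 0.20 at 8 months, so each excluded a fall in signal of the size seen for Mdk. The 8-month means, 5.210 in diabetic and 5.199 in control kidneys, lay below 5.27, the mean signal required for testing. The 4-month means, 5.453 and 5.437, were close to it, and of 3 Ptn probe sets 1 passed it. So dim a signal can miss a fall in RNA, so the intervals speak for the signal only. The value of 5.793 at 8 months came from diabetic array 3, and without it the difference was -0.11. Over all arrays with age means removed r between Ptn and Mdk was 0.114, and with group means removed it was 0.621, the highest among the 15 pairs of the 6 genes. Diabetic array 3 at 8 months was the highest of its group for Mdk too, at 8.822, and r without that array was not taken. The genes closest to Ptn were the receptor phosphatase Ptprs (r = 0.687), the matrix protein fibulin-2 (Fbln2, 0.681) and periostin (Postn, 0.662).

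**Figure D2:**
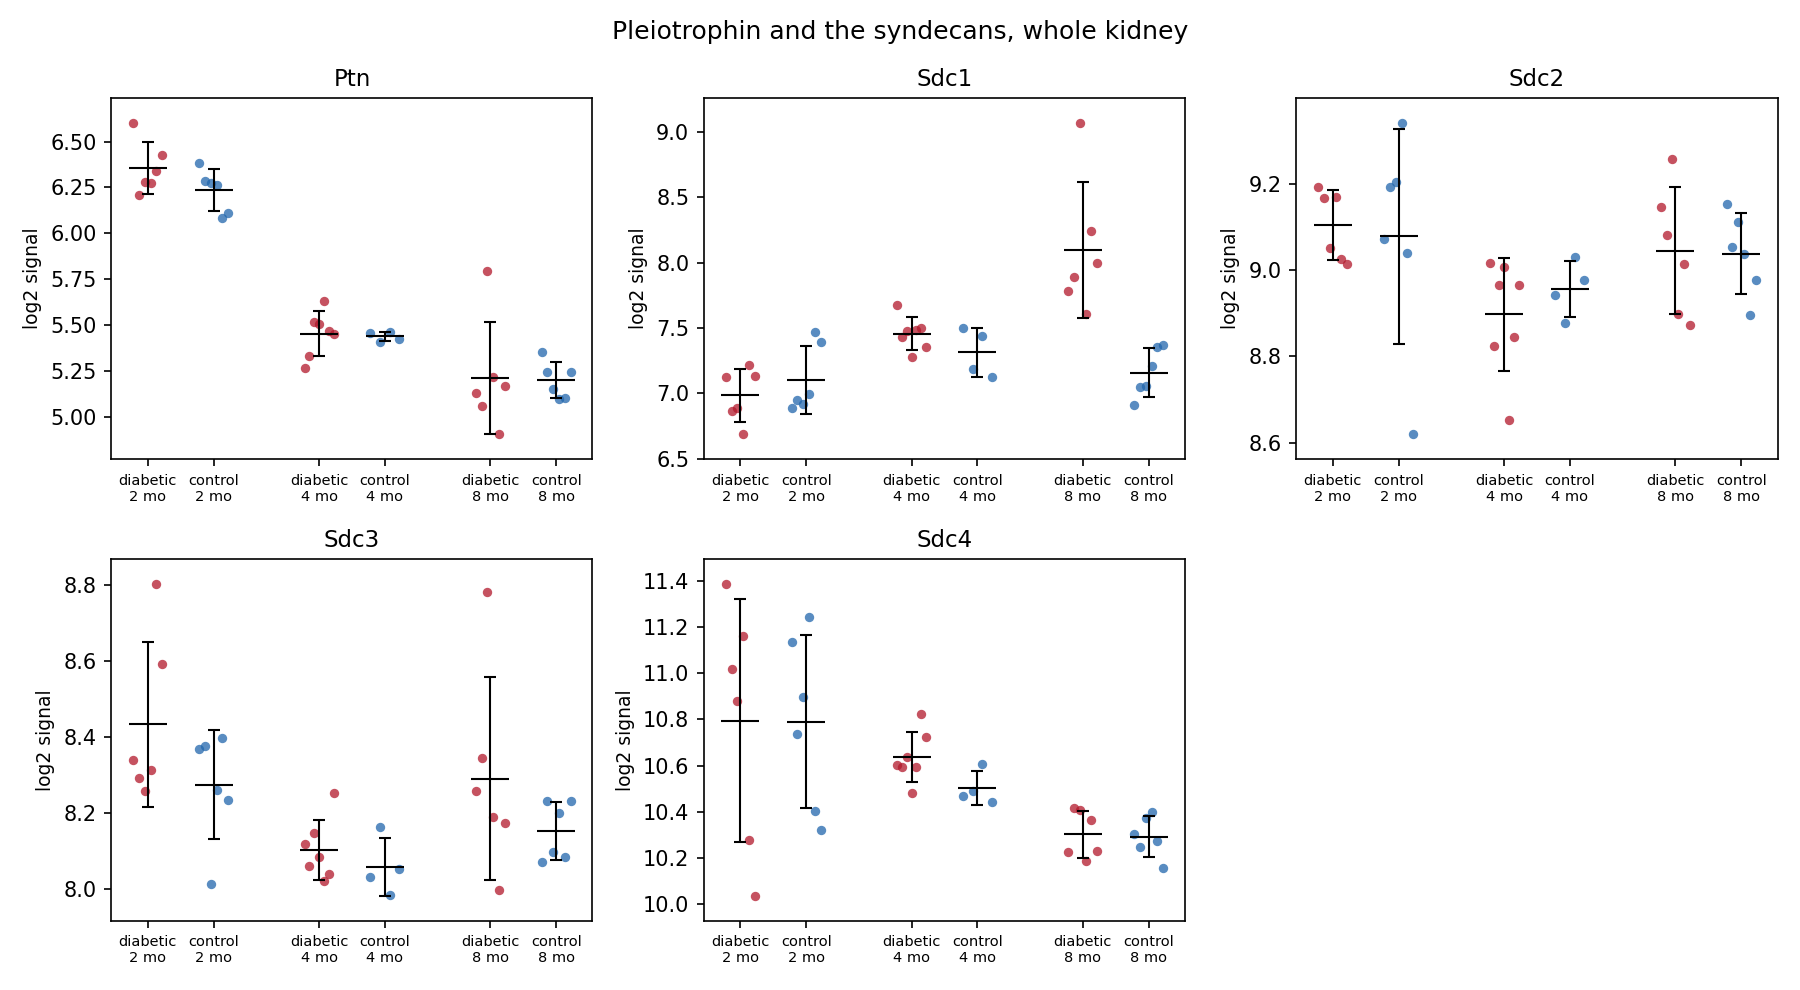
Log2 signal of Ptn and of Sdc1 to Sdc4 on each of the 35 arrays (points), by group and age in months, with group mean and SD (bars). Sdc1 at 8 months is the comparison in which all diabetic points lie above all controls, and in every other comparison shown the groups overlap.

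Of the 5 genes other than Mdk, 0 passed the test at 2 months, 0 at 4 months and 1, Sdc1, at 8 months. Among all genes tested 2.54% passed at 2 months, 0.969% at 4 months and 16.8% at 8 months, where 9.87% passed as higher and 6.95% as lower, so 1 in 5 is close to the background of that age. With same-numbered arrays blocked 553 genes passed at 2 months, against 330 without it, and 0 of the 5 did either way.

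Sdc1, the epithelial syndecan, rose at 8 months. Its signals on the 6 diabetic arrays were 7.785, 7.892, 9.070, 7.606, 8.245 and 8.001, with a median of 7.946. In the 6 controls the lowest, median and highest were 6.913, 7.133 and 7.369. All diabetic arrays lay above all controls, with a gap of 0.237, and 5.41% of the genes tested had such a separation upward at that age. The mean was 8.100 ± 0.521 in diabetic and 7.159 ± 0.185 in control kidneys (SD, n = 6 each), a difference of 0.94 ± 0.15, or 1.92-fold higher, with a 95% confidence interval from 0.63 to 1.25 (limma, adjusted p = 3.29e-05). Diabetic array 3 was the highest by far, and without it the difference was 0.75 (limma, adjusted p = 2.91e-05).

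At the younger ages Sdc1 did not pass the test. At 2 months its mean was 6.985 ± 0.203 in diabetic and 7.102 ± 0.257 in control kidneys (SD, n = 6 each), a difference of -0.12 ± 0.15 (limma, adjusted p = 0.794; 95% confidence interval -0.43 to 0.20). At 4 months it was 7.458 ± 0.126 in 7 diabetic and 7.313 ± 0.186 in 4 control kidneys (SD), a difference of 0.14 ± 0.17 (limma, adjusted p = 0.858; 95% confidence interval -0.19 to 0.48). The difference itself depended on age, with the limit that the ages may have been scaled apart. The F test over the ages passed (limma, adjusted p = 0.0088), as it did for 2.5% of all genes, and of the 5 genes only Sdc1 passed it. The difference was 1.06 ± 0.22 larger at 8 than at 2 months (limma, adjusted p = 0.00378), where 3.89% of all genes passed. It was 0.80 ± 0.23 larger at 8 than at 4 months (limma, adjusted p = 0.0867), where 0.877% of all genes passed and Sdc1 did not.

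Sdc1 is measured by 4 probe sets, and each of them rose at 8 months. The values above are those of the brightest. The next had a mean of 8.004 in diabetic and 7.128 in control kidneys, a difference of 0.88 ± 0.13 (limma, adjusted p = 1.29e-05). The third had a mean of 6.696 in diabetic and 6.144 in control kidneys, a difference of 0.55 ± 0.12 (limma, adjusted p = 0.00142). The fourth had a mean of 6.672 in diabetic and 6.067 in control kidneys, a difference of 0.61 ± 0.12 (limma, adjusted p = 0.000504), and its groups overlapped, from 6.112 to 7.214 in diabetic and from 5.961 to 6.195 in control kidneys. These probe sets read the same RNA on the same arrays and are not replicates of one another.

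**Figure D3:**
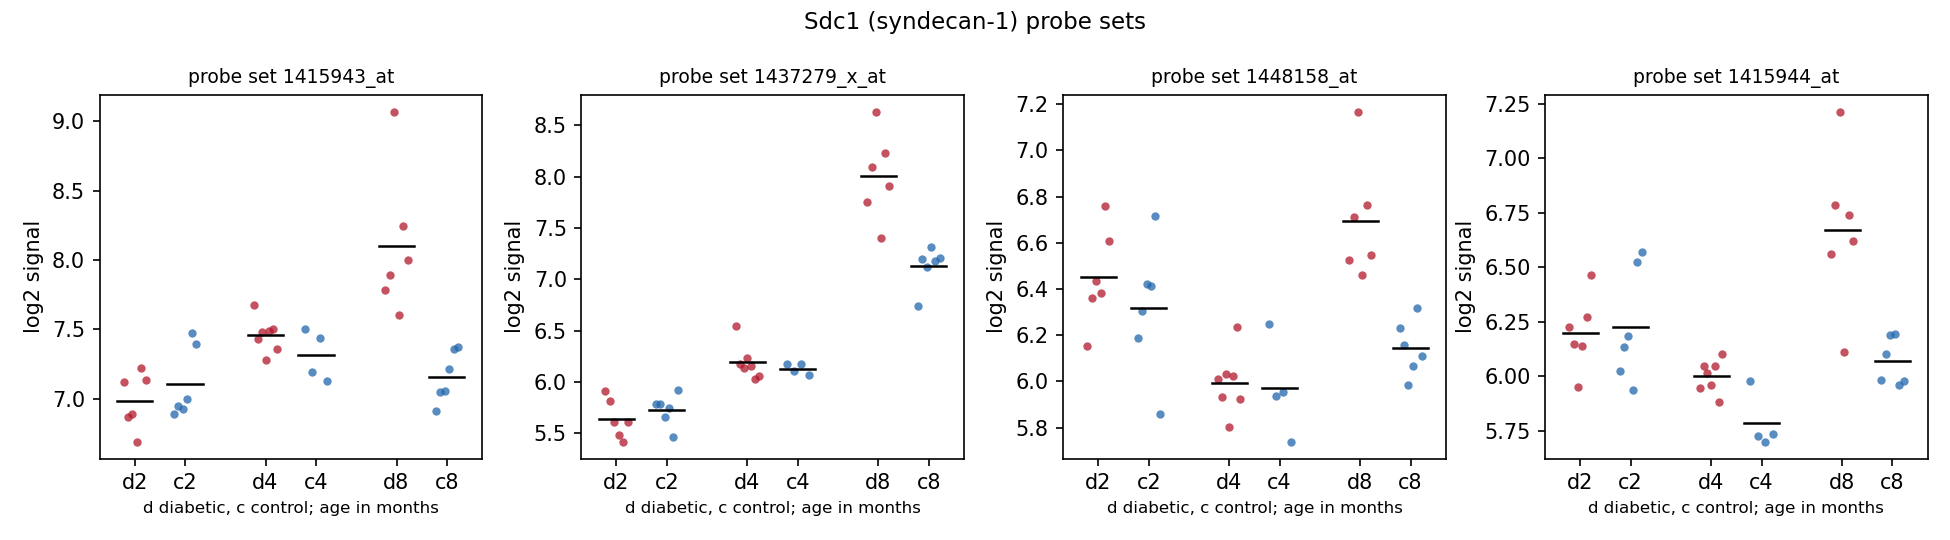
Log2 signal of the 4 Sdc1 probe sets on each of the 35 arrays (points), with the group mean (bars); d is diabetic, c is control and the number is the age in months. In each panel the 8-month diabetic mean is above the 8-month control mean, while the size differs between probe sets.

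Several marker groups moved with Sdc1 at 8 months. Of all genes tested 0.415% rose at 4 months and 9.87% rose at 8 months. Of 7 injured tubule markers 7 rose, and their mean signal lay between 9.870 and 11.663 in diabetic kidneys and between 8.819 and 9.099 in controls. At 4 months, when Sdc1 was not called, 1 of these 7 was called as higher and their mean lay between 8.701 and 9.190 in diabetic kidneys and between 8.331 and 8.482 in controls. With the replicate block 0 of the 7 were called at 4 months. At 8 months 4 of 5 plasma cell and B cell markers rose, and their mean lay between 8.933 and 10.603 in diabetic kidneys and between 8.369 and 8.886 in controls. Ighm, the heavy chain of immunoglobulin M, had a mean of 10.683 ± 0.816 in diabetic and 8.166 ± 0.359 in control kidneys (SD, n = 6 each), whereas at 2 and 4 months 0 of these 5 markers were called. Of 7 macrophage markers 6 rose, with means from 8.972 to 10.569 in diabetic kidneys and from 7.812 to 8.289 in controls. Of 9 fibroblast and smooth muscle markers 7 rose, with means from 8.573 to 10.450 in diabetic kidneys and from 7.868 to 8.691 in controls. Diabetic array 3, the highest for Sdc1, was also the highest for the mean of each of these lists. Diabetic array 4, the lowest for Sdc1 at 7.606, had the lowest injured tubule and macrophage means, 9.870 and 8.972. The lists did not all follow Sdc1 array by array. Diabetic array 5, the next highest for Sdc1 at 8.245, had the lowest plasma cell and B cell mean, 8.933, and the lowest fibroblast mean, 8.573. The immunoglobulin light chain gene Igkc was among the listed markers not tested here, and the part of any of these cell types in the Sdc1 result was not tested. The genes most like Sdc1 over the 35 arrays were the heparan sulphate collagen Col18a1 (r = 0.886), the CTP synthase Ctps (0.886) and the adhesion protein Nectin2 (0.881), and with group means removed r was 0.807, 0.767 and 0.762.

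Syndecan-2, syndecan-3 and syndecan-4 did not pass the test at any age. Sdc2 had means of 9.104 ± 0.081 in diabetic and 9.078 ± 0.249 in control kidneys at 2 months (SD, n = 6 each), where control array 6, at 8.619, was the lowest of all. On that array the 3′ over 5′ log2 ratio of beta-actin, a sign of RNA quality, was 2.56, against 0.815 to 1.35 on the other arrays of that age. At 4 months it had 8.897 ± 0.131 in 7 diabetic and 8.956 ± 0.064 in 4 control kidneys (SD), and at 8 months 9.045 ± 0.147 in diabetic and 9.038 ± 0.093 in control kidneys (SD, n = 6 each). The Sdc2 differences were 0.03 ± 0.08, -0.06 ± 0.09 and 0.01 ± 0.08 at 2, 4 and 8 months (limma, adjusted p = 0.932, 0.901 and 0.976). Their 95% confidence intervals stayed between -0.25 and 0.20, which is a narrow range beside the Sdc1 change at 8 months. This holds for the brightest Sdc2 probe set. The next, with a mean of 8.619, differed by 0.06, -0.00 and 0.02 at 2, 4 and 8 months. A dimmer one, with a mean of 7.524, was less precise, at 0.29 ± 0.18 at 2 and 0.21 ± 0.18 at 8 months (limma, adjusted p = 0.565 and 0.558).

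Sdc3 had means slightly higher in diabetic kidneys at each age, with overlapping groups. They were 8.433 ± 0.217 in diabetic and 8.274 ± 0.144 in control kidneys at 2 months (SD, n = 6 each), with the highest values, 8.802 and 8.592, on diabetic arrays 5 and 6. They were 8.103 ± 0.079 in 7 diabetic and 8.058 ± 0.076 in 4 control kidneys at 4 months (SD), and 8.290 ± 0.267 in diabetic and 8.152 ± 0.077 in control kidneys at 8 months (SD, n = 6 each). The Sdc3 differences were 0.16 ± 0.09, 0.05 ± 0.10 and 0.14 ± 0.09 at 2, 4 and 8 months (limma, adjusted p = 0.445, 0.937 and 0.356), with 95% confidence intervals that reached 0.35, 0.25 and 0.33 at their upper ends. The genes most like Sdc3 were Fhl2 (r = 0.830), the midkine receptor Lrp1 (0.817) and Icosl (0.815).

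Sdc4, the focal adhesion syndecan, split at 2 months by array number and not by diabetes. Arrays 5 and 6 had 10.277 and 10.036 in diabetic kidneys and 10.405 and 10.320 in controls. Arrays 1 to 4 had 11.387, 11.021, 10.881 and 11.164 in diabetic kidneys and 11.136, 10.738, 10.899 and 11.245 in controls. The 2-month means were 10.794 ± 0.527 in diabetic and 10.791 ± 0.377 in control kidneys (SD, n = 6 each), a difference of 0.00 ± 0.15 (limma, adjusted p = 0.994). Without arrays 5 and 6 of each group it was 0.11 ± 0.10, and with these as the only arrays of that age it was -0.21 ± 0.11, neither of which passed the test. Values at the other ages were tighter, with 10.637 ± 0.108 in 7 diabetic and 10.502 ± 0.073 in 4 control kidneys at 4 months (SD) and 10.303 ± 0.102 in diabetic and 10.291 ± 0.089 in control kidneys at 8 months (SD, n = 6 each). The Sdc4 differences there were 0.13 ± 0.17 and 0.01 ± 0.15 (limma, adjusted p = 0.873 and 0.975; 95% confidence intervals -0.21 to 0.47 and -0.30 to 0.33). The nearest genes to Sdc4 were Malat1, a nuclear long noncoding RNA (r = 0.891), the casein kinase subunit Csnk2a1 (0.865) and the calcium uniporter Mcu (0.865), and nearest to Sdc2 were Septin2 (0.810), the kinase Taok1 (0.799) and Tmem165 (0.787).

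**Figure D4:**
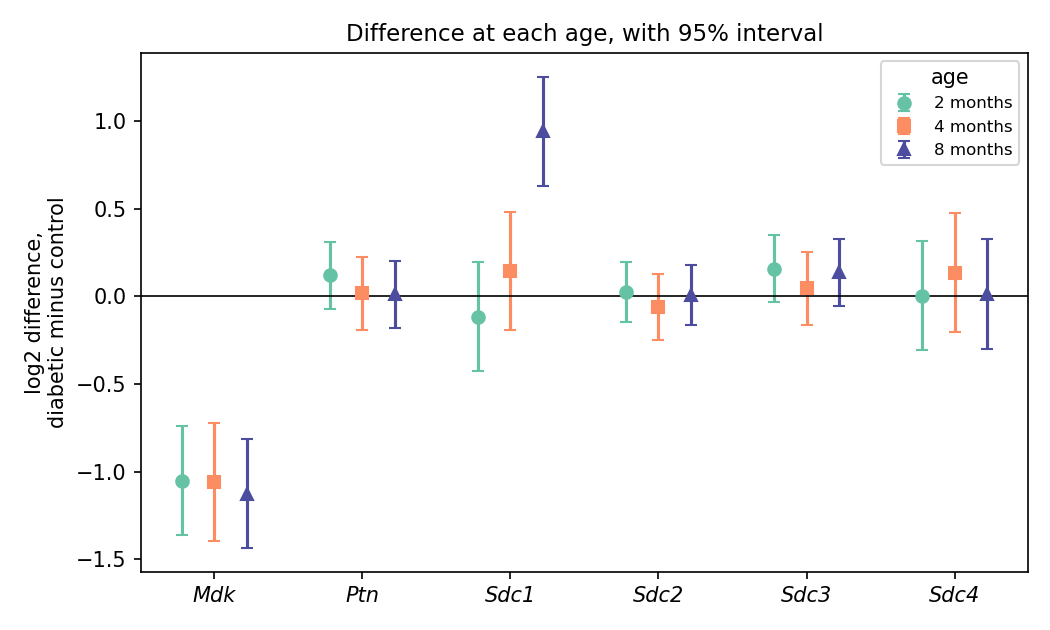
Log2 difference, diabetic minus control, of the 6 genes at 2, 4 and 8 months, with 95% confidence intervals of the limma fit (bars) and a line at 0. Mdk lies near -1 at each age, Sdc1 departs from 0 at 8 months with 0.94, and the intervals of the other genes include 0.

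The start regions of the syndecan that rose and of a syndecan that did not pass the test are shown so that they can be read side by side. They are the 250 bases upstream of the annotated gene starts, from RefSeq on GRCm38.p6, at chr12:8771146-8771395 on the plus strand for Sdc1 and chr2:164443189-164443438 on the minus strand for Sdc4, written 5′ to 3′ in the direction of the gene. Capitals mark the letters of a GC box, GGGCGG, of an NF-kB motif, GGGAATTCC, or of a TATA motif, TATAA, each searched on both strands after the sequences had been seen.
Sdc1 promoter: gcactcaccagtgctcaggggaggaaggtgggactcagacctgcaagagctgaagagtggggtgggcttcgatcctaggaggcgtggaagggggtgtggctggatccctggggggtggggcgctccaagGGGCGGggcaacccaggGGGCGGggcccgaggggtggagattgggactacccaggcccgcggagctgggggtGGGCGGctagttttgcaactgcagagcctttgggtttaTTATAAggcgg
Sdc4 promoter: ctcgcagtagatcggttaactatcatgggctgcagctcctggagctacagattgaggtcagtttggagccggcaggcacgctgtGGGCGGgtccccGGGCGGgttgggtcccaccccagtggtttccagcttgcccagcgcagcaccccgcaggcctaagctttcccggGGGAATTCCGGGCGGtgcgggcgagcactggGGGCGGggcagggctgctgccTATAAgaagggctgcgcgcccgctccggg
The Sdc1 window held 3 GC boxes and the Sdc4 window 4, and 32.7% of 32851 mouse promoter windows of that length hold at least 1. The NF-kB motif was found once in the Sdc4 window, where it directly precedes a GC box, and in 0.21% of all windows. In Sdc1 the TATA motif matched on each strand within the same 6 letters, TTATAA, 11 and 10 bases before the start, and in Sdc4 it matched 29 bases before the start. It is present in 22.8% of all windows. Ptn had 0 GC boxes and 2 overlapping TATA matches, and Sdc3 had 3 GC boxes and no match to either other motif. A match is a stretch of letters, and none of these data measure binding to it.

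Genes around the midkine and syndecan system were taken from 10 lists and read beside the shares of all genes tested, of which 0.754% rose and 1.78% fell at 2 months, 0.415% rose and 0.554% fell at 4 months, and 9.87% rose and 6.95% fell at 8 months. The median difference of a list lay between -0.09 and 0.07 at 2 months and between -0.06 and 0.15 at 4 months, against -0.01 and 0.01 over all genes tested. Of 15 listed receptors and co-receptors 11 were tested, and 0 were called at 2 months, 1 fell at 4 months, and 1 rose and 1 fell at 8 months. With the replicate block 1 of them, Notch2, was called as lower at 2 months. The block also ended the 4-month call, that of Itga6, and the 8-month rise, that of Cspg4 (limma, adjusted p = 0.0641 and 0.0551). Itga6, an integrin subunit that binds midkine and laminin, fell at 4 months, with a mean of 9.481 ± 0.282 in 7 diabetic and 10.166 ± 0.278 in 4 control kidneys (SD), a difference of -0.68 ± 0.14 (limma, adjusted p = 0.011). That call was lost without control array 3 or control array 4, at its weakest without array 4 (limma, adjusted p = 0.104), and without control arrays 3 and 4 together (limma, adjusted p = 0.883), the arrays with high Arntl. Lrp2, the megalin of the proximal tubule, fell at 8 months to 12.446 ± 0.197 in diabetic kidneys, against 12.948 ± 0.063 in controls (SD, n = 6 each), a difference of -0.50 ± 0.13 (limma, adjusted p = 0.00658), and it is also on the proximal tubule list above. Cspg4, a chondroitin sulphate proteoglycan of pericytes, rose by 0.19 ± 0.06 at 8 months (limma, adjusted p = 0.0268), a call lost without diabetic array 2, 3 or 5 or control array 2 or 4, at its weakest without control array 2 (limma, adjusted p = 0.0786). Ptprz1, Alk, Itga4 and Itgb3 were among the receptors not tested.

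Other proteoglycans changed mainly at 8 months. Of 9 tested heparan sulphate proteoglycans outside the syndecans 0 were called at 2 and 4 months, and 2 rose and 1 fell at 8 months, with a median difference of 0.04. Cd44, a hyaluronan receptor with a heparan sulphate form, rose to 8.629 ± 0.970 in diabetic kidneys, against 5.739 ± 0.247 in controls (SD, n = 6 each), a difference of 2.89 ± 0.26 (limma, adjusted p = 2.32e-09). Col18a1, the basement membrane collagen that most resembled Sdc1, rose by 0.56 ± 0.10 (limma, adjusted p = 9.99e-05). Tgfbr3, the betaglycan co-receptor of TGF-beta, fell by 0.32 ± 0.10 (limma, adjusted p = 0.0212), a call lost without diabetic array 2 (limma, adjusted p = 0.0569). Of 4 tested chondroitin and dermatan sulphate proteoglycans 2 rose at 8 months, Srgn, the serglycin of blood cell granules, by 0.41 ± 0.10 (limma, adjusted p = 0.00237) and Dcn, the matrix proteoglycan decorin, by 0.62 ± 0.20 (limma, adjusted p = 0.0258). The Dcn call was lost without diabetic array 3 or control array 1, at its weakest without diabetic array 3 (limma, adjusted p = 0.114), and Dcn is on the fibroblast list above.

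Enzymes that build and edit the sugar chains were called at 2 and 8 months. Of 10 tested assembly enzymes 1 was called, Ext1, a heparan sulphate polymerase, which rose by 0.36 ± 0.08 at 8 months (limma, adjusted p = 0.00125). Averaged over its probe sets Ext1 differed by 0.133 and did not pass (limma, adjusted p = 0.18). Of 12 tested heparan sulphate modifying enzymes 1 fell at 2 months, and 1 rose and 1 fell at 8 months. The 2-month call was the 6-O-sulphotransferase Hs6st2, at -0.57 ± 0.14 (limma, adjusted p = 0.0198), lost without diabetic array 3 (limma, adjusted p = 0.0519), without arrays 5 and 6 of each group (-0.43, limma, adjusted p = 0.204) and when its probe sets were averaged (-0.12, limma, adjusted p = 0.444). The 3-O-sulphotransferase Hs3st1 rose by 0.45 ± 0.11 at 8 months (limma, adjusted p = 0.004), and by 0.30 without diabetic array 3, while its relative Hs3st3a1 fell by 0.34 ± 0.08 (limma, adjusted p = 0.00337). Hs3st1 was dim, with means of 5.905 in diabetic and 5.453 in control kidneys at 8 months. At the younger ages its group means, 4.992 to 5.186, lay below 5.27, the mean signal required for testing. It was tested only because the diabetic 8-month arrays, the group called higher, raised its mean, which limits that call. Of 14 tested chondroitin and dermatan sulphate enzymes the sulphotransferase Chst7 fell by 0.49 ± 0.11 at 2 months (limma, adjusted p = 0.00729), and 3 rose at 8 months. The Chst7 call was lost without arrays 5 and 6 of each group (-0.41, limma, adjusted p = 0.0772). Those that rose were the synthase Chsy1 with 0.49, the sulphotransferase Chst12 with 0.37 and the sulphotransferase Chst13 with 0.35 (limma, adjusted p = 0.0259, 0.0126 and 0.0291). Without diabetic array 3 the calls of Chsy1 and Chst12 were lost (limma, adjusted p = 0.112 and 0.0608), and Chsy1 was also lost without diabetic array 5 or control array 1, 2 or 3. Chst13 was lost without diabetic array 5 or 6 or control array 1, 3, 4 or 5, at its weakest without diabetic array 5 (limma, adjusted p = 0.121).

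Syndecan partners inside the cell and the enzymes that shed syndecans were called at 8 months and not at 2 or 4 months, except that Timp3, an inhibitor of sheddases, was called as higher at 2 months with the replicate block. Of 16 partners 5 rose and 1 fell, with a median difference of 0.15, against -0.00 over all genes tested. Actn1, an actin cross-linker that binds the syndecan-4 tail, rose to 9.942 ± 0.407 in diabetic kidneys, against 9.261 ± 0.052 in controls (SD, n = 6 each), a difference of 0.68 ± 0.11 (limma, adjusted p = 1.83e-05). The small GTPase Rhog rose by 0.41 and the cortical actin protein Cttn by 0.37 (limma, adjusted p = 0.00573 and 0.00154). Gipc1, a PDZ protein that binds syndecan-4 and is also called synectin, rose by 0.33 (limma, adjusted p = 0.0245). That call was lost without diabetic array 3 or control array 4, at its weakest without diabetic array 3 (limma, adjusted p = 0.0927).

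Of 8 tested sheddases and their inhibitor 6 rose and 0 fell at 8 months, with a median difference of 0.31, beside 9.87% of all genes that rose at that age. Mmp2, a gelatinase, rose to 7.213 ± 0.779 in diabetic kidneys, against 6.301 ± 0.377 in controls (SD, n = 6 each), a difference of 0.91 ± 0.21 (limma, adjusted p = 0.00206), which was 0.60 without diabetic array 3 (limma, adjusted p = 0.00154). Mmp14, a membrane-bound metalloproteinase that cleaves syndecan-1, rose to 6.917 ± 0.650 in diabetic kidneys, against 6.073 ± 0.211 in controls (SD, n = 6 each), a difference of 0.84 ± 0.17 (limma, adjusted p = 0.000449). Adamts1, a secreted protease of proteoglycans, rose by 0.80 ± 0.22 (limma, adjusted p = 0.0096). With the 8-month arrays fitted alone Mmp2 and Adamts1 did not pass (limma, adjusted p = 0.0539 and 0.0518). Mmp7, the matrilysin of epithelia, rose by 0.31 ± 0.10 (limma, adjusted p = 0.036), a call lost without diabetic array 2, 3 or 5 or any of control arrays 3 to 6, at its weakest without diabetic array 3 (limma, adjusted p = 0.16). These are RNA levels, and shed syndecan was not measured. The injured tubule, macrophage and fibroblast markers given beside Sdc1 moved at the same age, and their part in these counts was not tested.

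**Figure D5:**
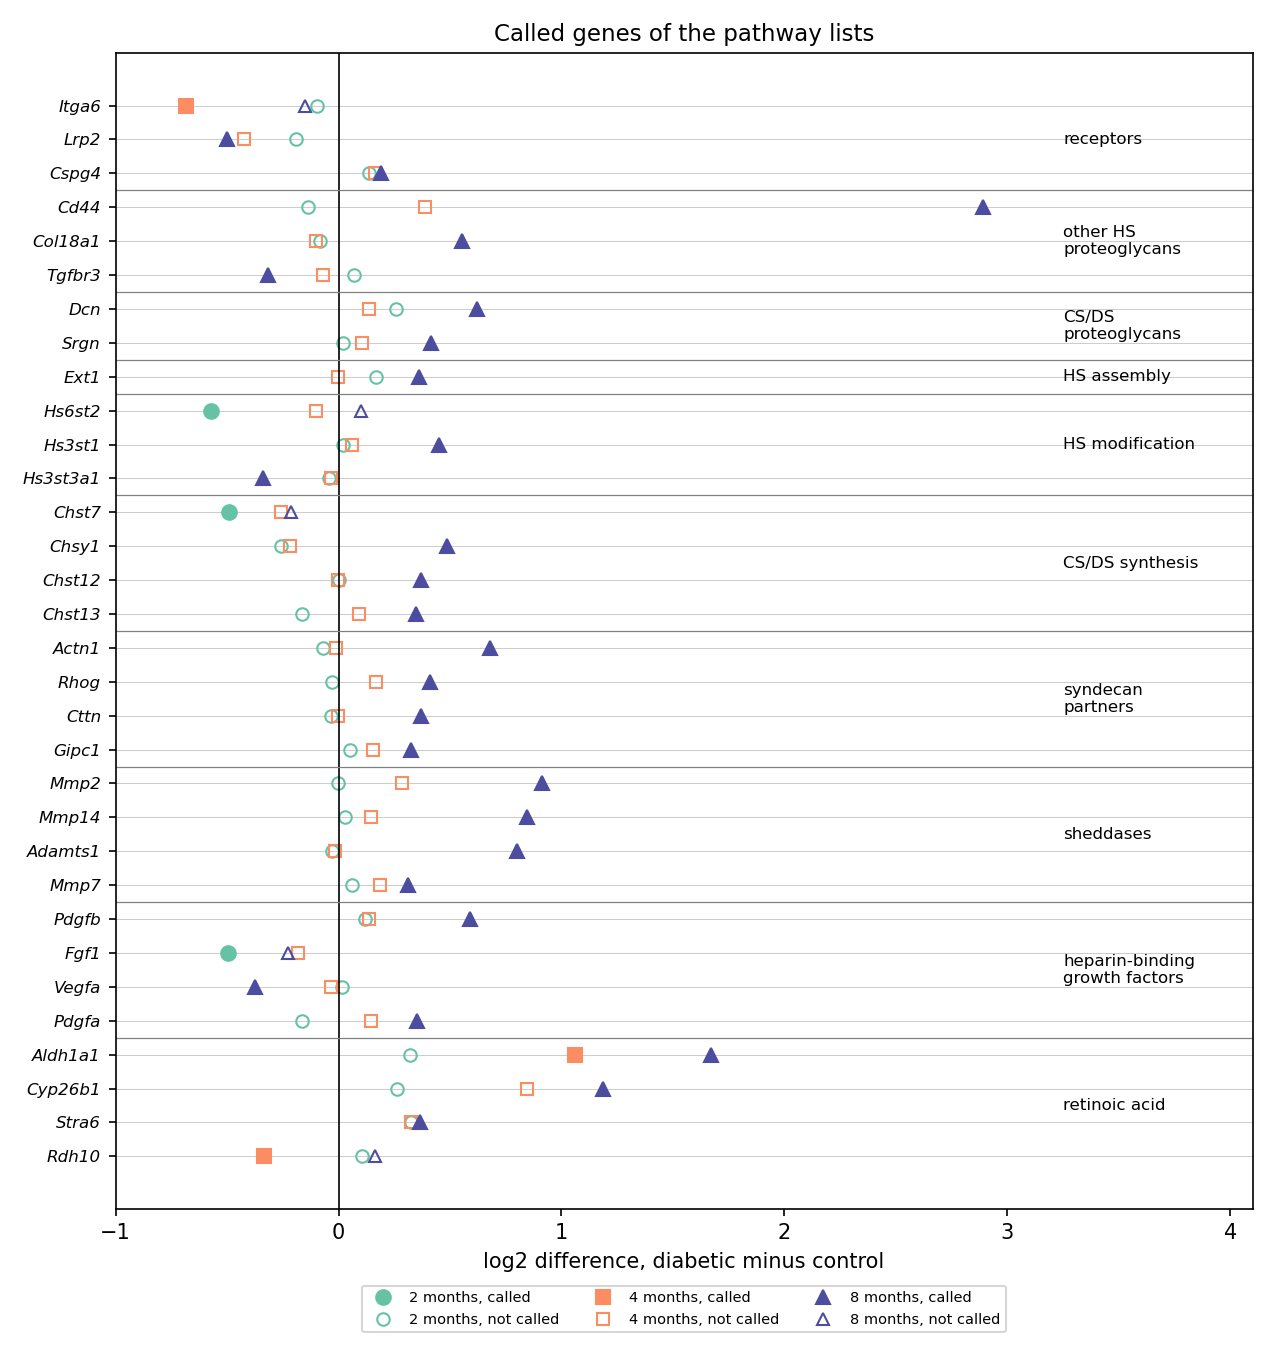
Log2 difference, diabetic minus control, of the named genes of the 10 pathway lists at 2 months (circles), 4 months (squares) and 8 months (triangles), filled where the gene passed the test and open where it did not; HS is heparan sulphate, CS chondroitin sulphate and DS dermatan sulphate. Most filled marks are 8-month triangles right of 0, with Cd44 farthest at 2.89 and Aldh1a1 at 1.67.

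Other heparin-binding growth factors and the retinoic acid pathway complete the lists. Of 8 tested heparin-binding factors 1 fell at 2 months, and 2 rose and 1 fell at 8 months. With the replicate block Fgf9 was also called as lower at 8 months. The fibroblast growth factor Fgf1 fell by 0.49 ± 0.13 at 2 months (limma, adjusted p = 0.0395), a call lost without any of diabetic arrays 1 to 4 or control arrays 2 to 5, at its weakest without control array 2 (limma, adjusted p = 0.093). Pdgfb and Pdgfa, chains of the platelet-derived growth factor, rose by 0.59 ± 0.14 and 0.35 ± 0.12 at 8 months (limma, adjusted p = 0.00221 and 0.0443). The Pdgfa call was lost without any of diabetic arrays 2 to 5, control arrays 1 to 4 or control array 6, at its weakest without diabetic array 3 (limma, adjusted p = 0.132). Vegfa, the endothelial growth factor, fell by 0.38 ± 0.09 (limma, adjusted p = 0.00241). Averaged over its probe sets Vegfa differed by -0.321 and did not pass (limma, adjusted p = 0.06).

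Of 12 tested genes of retinoic acid signalling 0 were called at 2 months, 1 rose and 1 fell at 4 months, and 3 rose at 8 months, with a median difference of 0.16 at 8 months. Aldh1a1, which makes retinoic acid from retinaldehyde, had means of 9.364 ± 0.537 in 7 diabetic and 8.303 ± 0.637 in 4 control kidneys at 4 months (SD), a difference of 1.06 ± 0.27 (limma, adjusted p = 0.0461). At 8 months it had 10.696 ± 0.429 in diabetic and 9.023 ± 0.261 in control kidneys (SD, n = 6 each), a difference of 1.67 ± 0.25 (limma, adjusted p = 9.86e-06). Cyp26b1, which breaks retinoic acid down, rose at 8 months by 1.19 ± 0.32 (limma, adjusted p = 0.00872), and the retinol uptake receptor Stra6 rose by 0.37 ± 0.12 (limma, adjusted p = 0.0289). Rdh10, which makes retinaldehyde, fell by 0.33 ± 0.08 at 4 months (limma, adjusted p = 0.0317). The 4-month call of Aldh1a1 was lost without diabetic array 1, 2, 5 or 6 or control array 3 or 4, at its weakest without control array 3 (limma, adjusted p = 0.307). The call of Rdh10 was lost without any of diabetic arrays 4 to 7 or control array 3 or 4, at its weakest without control array 4 (limma, adjusted p = 0.284). The Rdh10 call was also lost with the replicate block (limma, adjusted p = 0.18). Stra6 was lost without diabetic array 1, 4 or 6 or control array 2, 3 or 6, at its weakest without diabetic array 1 (limma, adjusted p = 0.099). Without control arrays 3 and 4 together the 4-month differences were 0.53 for Aldh1a1 and -0.22 for Rdh10, and neither passed. With a clock covariate the 8-month calls of Tgfbr3, Dcn, Chst13 and Mmp7 were lost (limma, adjusted p = 0.0512, 0.0707, 0.076 and 0.0684). The 4-month calls of Itga6, Aldh1a1 and Rdh10 were lost with it too (limma, adjusted p = 0.0746, 0.0746 and 0.163). Fitted on the 8-month arrays alone Dcn, Chsy1, Chst13, Mmp7 and Stra6 did not pass either, beside Mmp2 and Adamts1 above (limma, adjusted p = 0.0524, 0.0889, 0.108, 0.0786 and 0.077). When the probe sets of a gene were averaged the 8-month differences were smaller but still called for Cd44 (1.86), Dcn (0.305) and Cttn (0.225).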

How the data were processed

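The members, the gene lists and the rule for the named genes were chosen with earlier results of these data known. Per the labels, whole-kidney total RNA was TRIzol-extracted, biotin-labelled and read on Affymetrix arrays. The deposited values are log2 probe set signals, as their range shows; how the authors corrected background, summarized probes and normalized is not given in the sources used here, and the ages may have been scaled apart. Of 45101 probe sets 34945 name 1 gene, and each of 18193 genes is represented by the brightest of its probe sets. Means under 5.27, the 40th percentile, were dropped, which kept 13004 genes. Group means were fitted on the full set of arrays in limma (3.58.1, under R 4.3.3), checked on simulated data. Called genes have a two-sided p under 0.05 after Benjamini-Hochberg adjustment across the 13004. Errors after differences are standard errors of that fit, which takes 1 spread per gene over all groups.

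The named genes are the 6 members with all their probe sets, up to 4 called genes of each of 10 pathway lists with the largest difference at any age, the 5 genes with the highest and the 3 with the lowest r to Mdk, and the 3 with the highest r to each other member, leaving aside unnamed gene models. Cell markers form 11 lists. Gene positions are not given, as the files name no build; promoter windows are RefSeq's.

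Nothing says that arrays come from separate animals, so p-values measure the spread between arrays, which may be technical. The labels number diabetic and control arrays alike without saying that equal numbers are pairs. After group means were removed, same-numbered arrays correlated with r of 0.246 to 0.444 at 2 months, with 6 of 6 pairs over 0.1, which meets the bar for pairs there, from the data and not the labels. Printed values are those of the fit without a replicate block, and the block is named where it changes a call or count. At 4 months r was 0.0484 to 0.177, with 1 of 4 pairs over 0.1, and at 8 months -0.142 to 0.233, with 2 of 6. Alternatives were another filter, other probe sets, other normalizations, a replicate block, arrays of an age alone, covariates and left-out arrays.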

Additional observations from a re-analysis of the deposited data

Results flagged for a closer look

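The Mdk signal of control array 5 at 2 months, 9.078, was the lowest of its group and stood far from the other 5, which lay from 9.602 to 9.745. The Ptn signal of diabetic array 3 at 8 months, 5.793, was the highest of its group and stood far from the other 5, which lay from 4.903 to 5.216. Of 36 groups of arrays looked at in this way 2 had such an array, and chance gives about 1 in 20. The diabetic-control difference of Sdc1 was larger at 8 than at 2 months, by 1.06 ± 0.22 (limma, adjusted p = 0.00378).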

How the results depend on the processing

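Of the 5 genes other than Mdk, 0, 0 and 1 passed the test at 2, 4 and 8 months under every alternative, and the gene that passed was Sdc1. With 1 array left out at a time its 8-month difference ran from 0.747 to 1.04, and under the other settings, other probe sets included, from 0.552 to 0.95. The Mdk difference stayed below 0 throughout. Leaving out 1 array gave -1.15 to -1.0 at 2 months, -1.17 to -0.96 at 4 months and -1.25 to -1.01 at 8 months, and a replicate block gave -1.05, -1.08 and -1.12. The larger Sdc1 difference at 8 than at 4 months passed without diabetic array 4 of 8 months (0.896, limma, adjusted p = 0.0233), with the mean of all probe sets (0.632, 0.0307), without arrays 5 and 6 of 2 months (0.797, 0.0463) and with these as a batch term (limma, adjusted p = 0.0428). Differences near 0 changed sign without being called, and the cause was not tested. They were Ptn with the mean of all probe sets (-0.0389 at 4 and -0.0172 at 8 months), the replicate block (-0.0321 at 4 months), the clock covariate (-0.0428 at 4 months), the beta-actin covariate (-0.000898 at 8 months), and its other probe sets (-0.0139 and -0.119 at 4, -0.137 at 8 and -0.148 at 2 months). They were Sdc2 with the mean of all probe sets (0.00555 at 4 months), quantile normalization over all arrays (-0.0235 at 8 months) or within ages (-0.0228 at 8 months), the beta-actin covariate (-0.0225 at 2 and -0.0295 at 8 months), arrays 5 and 6 of 2 months left out (-0.0571 at 2 months) and another probe set (0.0914 at 4 and -0.137 at 8 months). They were Sdc4 with the mean of all probe sets (-0.0417 at 4 months), quantile normalization over all arrays (-0.0142) or within ages (-0.0132) at 8 months, centred medians (-0.000103 at 2 months), the clock covariate (-0.032 at 4 months), the beta-actin covariate (-0.029 at 2 and -0.0123 at 8 months), arrays 5 and 6 alone (-0.207 at 2 months, an alternative chosen after seeing the data) and another probe set (-0.218 at 4 months), and Sdc1 with another probe set (0.133 at 2 months). Leaving out 1 array gave ranges across 0 for Sdc4 (-0.115 to 0.155 at 2 and -0.0153 to 0.0358 at 8 months), Sdc2 (-0.0661 to 0.0782 at 2 and -0.036 to 0.0411 at 8 months) and Ptn (-0.0134 to 0.048 at 4 and -0.105 to 0.0727 at 8 months). Over all genes 330, 126 and 2187 passed at 2, 4 and 8 months, against 553, 91 and 2651 with the replicate block, 64, 358 and 2370 with the arrays of an age alone, 341, 385 and 3400 without arrays 5 and 6 of 2 months, 696, 243 and 2799 with these as a batch term, 571, 181 and 2539 with these alone at 2 months, and 5 at 4 months without control arrays 3 and 4. Leaving out 1 array gave 192 to 515 at 2 months, 29 to 183 at 4 months and 1633 to 2600 at 8 months. Of 33 calls of named list genes 13 held without any 1 array and in every other setting, 5 (Ext1, Vegfa, Chst7, Mmp2 and Adamts1) held without any 1 array but not in another setting, and 15 were lost without at least 1 array. Dim genes, among them Ptprz1 and Alk, were not tested, so nothing is said of them.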
